A study of Mus musculus with 6 samples.

Results

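The genes described here encode the enzymes that build cholesterol and fatty acids, together with the regulators that set their transcription. They were taken by symbol from a list of 31 genes, ordered along the pathway. All 31 were among the 24062 symbols of the count table, and all 31 passed the filter on low counts. Messenger RNA was measured in bone marrow cells sorted for Kit, a receptor of stem and progenitor cells of the blood; the design text adds that they were lineage-negative. The KO group was 3 mice with floxed Ints11 alleles and Mx1-Cre, a Cre transgene under an interferon-responsive promoter that is not restricted to blood cells. The WT group was 3 littermates, whose Cre status is not given in the labels, and neither is the age of any mouse. Both groups were C57BL/6, both are given as collected 4 days after poly(I:C), the interferon inducer that switches Mx1-Cre on, and each library came from 1 mouse. Ints11 encodes the endonuclease of Integrator, a complex that cleaves nascent RNA. The question here is how the messenger RNAs of lipid synthesis differ between the 2 genotypes.

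KO libraries held 127011537 to 142983542 counts and WT libraries 124074531 to 166860739. Ints11, listed as Cpsf3l, had 64.3, 58.3 and 60.2 CPM in KO libraries, against 73.8, 92.3 and 78.9 CPM in WT libraries, where CPM are counts scaled to the size of each library. The genotypes did not overlap (log2 change -0.42 ± 0.10, SE; adjusted p = 0.0174, edgeR's quasi-likelihood test). That call was lost without KO_340 (adjusted p = 0.0557) or KO_345 (0.0541), and with the neutrophil marker level as a covariate (log2 change -0.22, adjusted p = 0.196) or the progenitor marker level described below (-0.10, 0.946). The sort marker Kit averaged 228 ± 9.28 CPM in KO and 211 ± 11.5 CPM in WT libraries (SD, n = 3 each). Markers of maturing cells were present as well. The summed level of 11 mature neutrophil markers was 43737 to 57430 CPM in KO and 11423 to 36229 CPM in WT libraries, with 4 of 11 called higher and 0 lower. The sum of 7 granulocyte-monocyte progenitor markers was 8341 to 10186 CPM in KO and 16360 to 22190 CPM in WT libraries, with 6 of 7 called lower. Of 9 stem and multipotent progenitor markers 7 were called higher, of 6 megakaryocyte markers 3, and of 6 mast cell and basophil markers 6. Over all tested genes, 16.0% were called higher and 19.9% lower in the same fit. In bulk RNA, fewer cells of a type and less RNA per cell cannot be told apart, and how far cell mixture contributes to the values below was not tested beyond fits with the neutrophil and the progenitor marker level as covariates.

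Cholesterol is made from acetyl-CoA through mevalonate and farnesyl diphosphate, which also feeds protein prenylation, and then through squalene and lanosterol. Fatty acids start from the same acetyl-CoA pool, which is carboxylated, condensed, elongated and desaturated. Transcription of both routes is driven by the SREBP factors, which are held in the endoplasmic reticulum by SCAP and INSIG while sterols are plentiful and released for cleavage when sterols run low. Dividing progenitors need both routes to build membranes.

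Of the 31 genes, 17 fell and 1 rose in KO cells. The threshold was 0.05 after Benjamini-Hochberg adjustment over all 15742 genes in edgeR's quasi-likelihood fit. Among all genes tested, 19.9% were called lower and 16.0% higher. The median log2 change of the 31 genes was -0.37, against 0.01 over all genes tested. For 20 of the 31 genes the highest KO library was below the lowest WT library, a pattern found in 28.4% of all genes tested. The reverse held for 1 of the 31, and for 25.6% of all genes tested. The falls were modest for most genes, and the log2 changes of the 31 ran from -1.37 for Fdps to 0.95 for Lpin1. The summed level of all 31 was 1479, 1538 and 1520 CPM in KO libraries, against 1881, 2390 and 2326 CPM in WT libraries. Most of this sum came from the 7 fatty acid genes, with means of 855 CPM in KO and 1320 CPM in WT libraries. The means were 143 and 244 CPM for the mevalonate steps, and 185 and 229 CPM for the steps from squalene to cholesterol. For the regulators and sterol transport they were 330 and 407 CPM. WT_341 had the lowest WT sum of all 31, and among WT libraries it also had the highest neutrophil and the lowest granulocyte-monocyte progenitor marker sums.

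**Figure D1:**
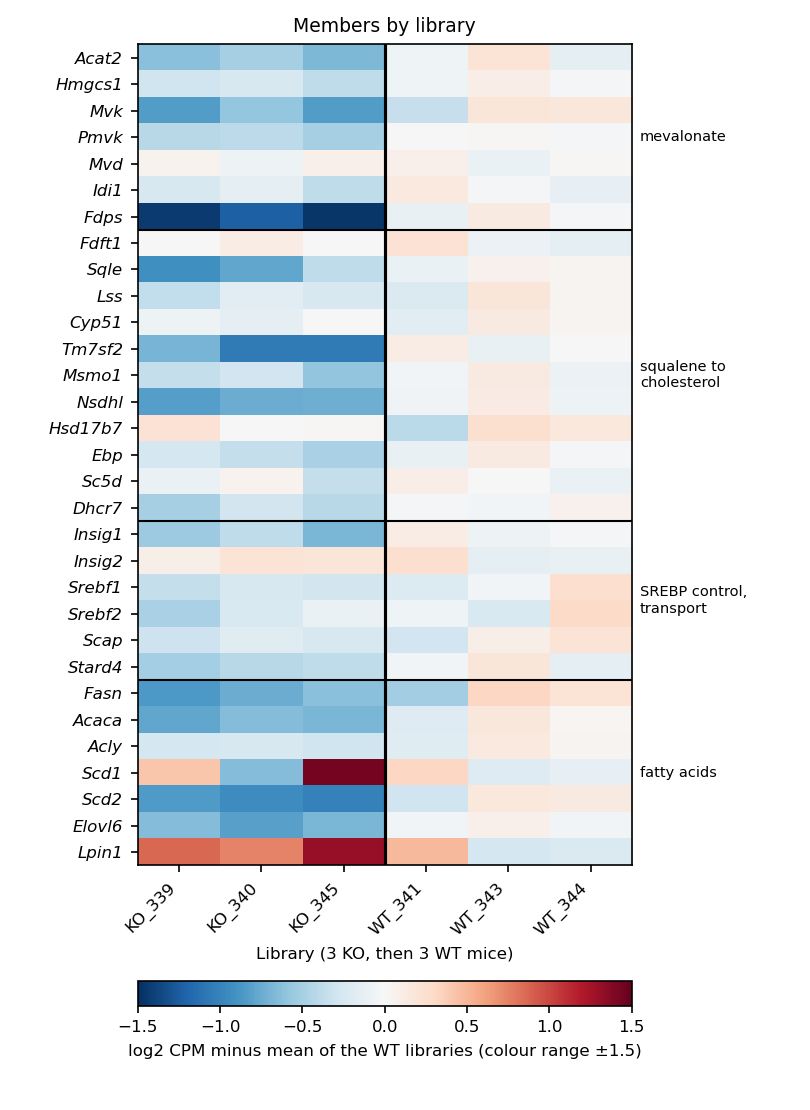
Colour gives the log2 CPM of each of the 31 genes (rows, in pathway order) in each library minus the mean of the 3 WT libraries, with KO libraries on the left and WT libraries on the right. Blue cells fill most of the KO columns, darkest for Fdps, while Lpin1 is red in all 3 KO libraries and Scd1 differs in sign between them.

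The share of genes called lower varied with expression level, so all tested genes were split by level into 4 groups of equal size. In the highest group 4 of 8 members were called lower, against 36.4% of all its genes. In the next group 8 of 12 members were called lower, against 29.7%, and in the one after it 5 of 11, against 12.5%. No member lay in the lowest group. The number of members called lower depended on single libraries. It was 6 without KO_339, 10 without KO_345, 11 without KO_340, 11 without WT_344, 14 without WT_343 and 21 without WT_341. Over all genes the share called lower moved in the same order, to 7.95%, 10.3%, 10.4%, 11.5%, 15.1% and 26.6%. With the neutrophil marker level as a covariate 7 members were called lower, against 6.03% of all genes, and 0 were called higher. Those 7 were Fdps, Tm7sf2, Nsdhl, Insig1, Acaca, Scd2 and Elovl6, so the other 10 falls described below were not called in that fit. Upper-quartile scaling moved the median of all genes to 0.15 and scaling by library totals to 0.11, and each left 13 members lower. With the granulocyte-monocyte progenitor marker level as a covariate, a fit added after seeing the data, edgeR called 0 of the 15742 genes and so 0 members. At an unadjusted p under 0.05 that fit held 1493 genes, 2 of them members. The median log2 change of the members was -0.13 in it, and 13 of the 17 were negative, while Hmgcs1 (0.024), Mvk (0.51), Ebp (0.012) and Fasn (0.63) were positive. The progenitor level did not overlap between genotypes, and the median standard error over all genes was 0.450 in that fit, against 0.149 without the covariate. Genotype and progenitor level therefore cannot be told apart in these libraries. Under each of the other 16 alternatives the 17 members kept a negative log2 change. Fdps, Tm7sf2, Nsdhl, Acaca, Scd2 and Elovl6 were called under those 16, and not with the progenitor covariate (log2 changes -0.79, -1.39, -0.59, -0.07, -0.10 and -0.75).

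**Figure D2:**
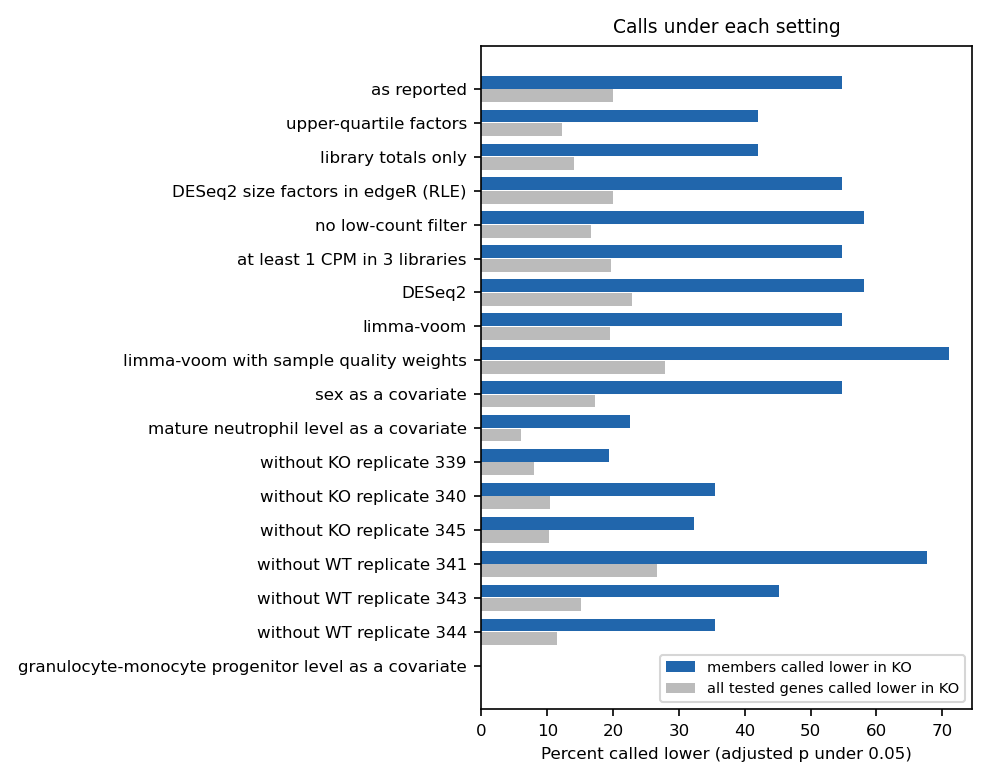
Bars give the percent of the 31 genes (blue) and of all tested genes (grey) called lower in KO cells under the fit as reported and under 17 alternatives. The blue bar is the longer wherever calls were made, both shrink when a KO library is left out, and both are 0 with the progenitor covariate.

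Of the 7 genes from acetyl-CoA to farnesyl diphosphate, 5 fell, 0 rose and 2 were not called. Fdps, which encodes farnesyl diphosphate synthase at the branch point to sterols and prenyl groups, changed most of all 31 genes. It had 44.9, 51.7 and 44.2 CPM in KO libraries, against 112, 133 and 119.6 CPM in WT libraries. The groups were far apart, and each KO library held less than the lowest WT library by more than the spread within either group. The level was lower by 61.3% (log2 change -1.37 ± 0.10, SE; adjusted p = 0.000989, edgeR's quasi-likelihood test). Fdps lies on chromosome 3 (89093588 to 89101959, reverse strand; all gene positions are GENCODE M21 on GRCm38, the assembly that mm10 names). A processed pseudogene, Gm3571, holds a stretch of 1062 bases that is 98.9% identical, and Gm43738 overlaps 1124 bases of its exons on the same strand. Neither is listed in the count table, and how shared reads were counted is not stated in the labels.

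Acat2, the cytosolic thiolase of the first step, had 11.9, 13.0 and 11.4 CPM in KO libraries, against 17.5, 21.2 and 16.6 CPM in WT libraries. The groups did not overlap (log2 change -0.61 ± 0.12, SE; adjusted p = 0.0113, edgeR's quasi-likelihood test), and the call was lost without KO_339 (adjusted p = 0.0525). Its near-identical copy Acat3 was listed at 1.85 CPM in KO and 1.33 CPM in WT libraries, and reads may be split between the copies. Tcp1, a chaperonin subunit gene that shares a stretch of 445 bases at 98.7% identity with Acat2, was far higher and also fell, at 314 CPM in KO and 441 CPM in WT libraries (log2 change -0.49, adjusted p = 0.0312, edgeR's quasi-likelihood test). Hmgcs1, which makes HMG-CoA, had 43.8, 45.5 and 41.4 CPM in KO libraries, against 51.3, 57.7 and 52.8 CPM in WT libraries. This was a small fall without overlap (log2 change -0.31 ± 0.08, SE; adjusted p = 0.0251, edgeR's quasi-likelihood test). It did not pass with upper-quartile scaling (-0.17), with library totals (-0.21), or without KO_339 (adjusted p = 0.0848), KO_340 (0.0557), KO_345 (0.0883) or WT_344 (0.0639).

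Mvk, the kinase that acts on mevalonate, had 5.33, 6.37 and 5.33 CPM in KO libraries, against 7.47, 10.8 and 10.7 CPM in WT libraries. WT_341 was the lowest WT library and still lay above every KO library (log2 change -0.77 ± 0.18, SE; adjusted p = 0.0169, edgeR's quasi-likelihood test). The call was lost without KO_339 (adjusted p = 0.0711), KO_345 (0.0625) or WT_344 (0.05999). Pmvk, the next kinase, had 13.9, 14.2 and 13.2 CPM in KO libraries, against 18.6, 18.8 and 18.4 CPM in WT libraries. Its libraries were tight within each genotype (log2 change -0.44 ± 0.09, SE; adjusted p = 0.0105, edgeR's quasi-likelihood test), although the call was lost without KO_339 (0.0576). Mvd, the decarboxylase that follows, had 15.2, 13.9 and 15.5 CPM in KO libraries, against 15.4, 13.7 and 14.9 CPM in WT libraries. The groups overlapped fully, with a log2 change of 0.02 ± 0.10 (SE). Idi1, the isomerase that follows Mvd, had a log2 change of -0.26 ± 0.14 (SE; adjusted p = 0.167, edgeR's quasi-likelihood test), and pseudogenes with up to 100% identity over 684 bases make its counts uncertain.

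**Figure D3:**
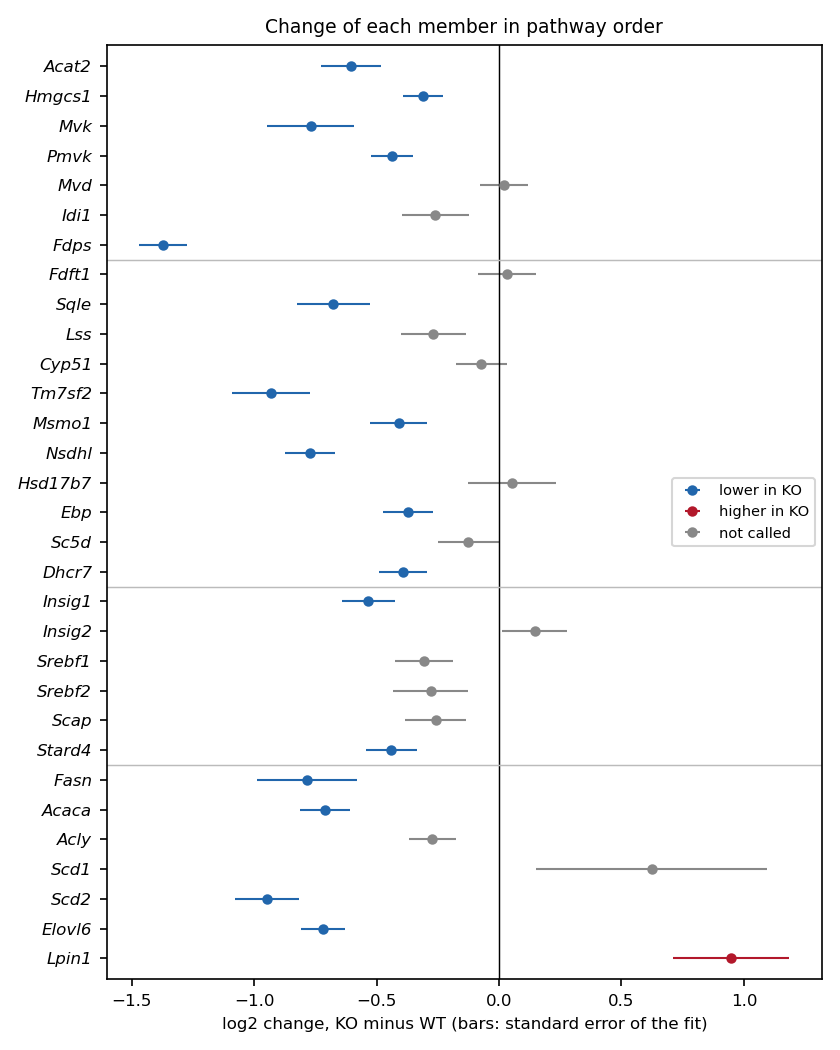
Points give the fitted log2 change, KO minus WT, of each of the 31 genes in pathway order with its standard error, from 3 KO and 3 WT libraries. Genes called lower at an adjusted p of 0.05 are blue, the 1 called higher is red, and grey genes were not called. Uncalled steps lie among runs of called ones along the sterol pathway, with Mvd, Fdft1, Cyp51, Hsd17b7 and Sc5d close to 0.

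Of the 11 genes from squalene synthesis to cholesterol, 6 fell, 0 rose and 5 were not called. Nsdhl, an X-linked dehydrogenase that helps to strip methyl groups from the sterol ring, had 9.35, 9.95 and 10.03 CPM in KO libraries, against 16.1, 18.1 and 15.8 CPM in WT libraries. No KO library came near a WT library (log2 change -0.77 ± 0.10, SE; adjusted p = 0.00380, edgeR's quasi-likelihood test). Tm7sf2, a sterol reductase gene, had 4.65, 3.61 and 3.60 CPM in KO libraries, against 8.10, 6.97 and 7.55 CPM in WT libraries. It showed the largest relative fall of the 11, by 47.5% (log2 change -0.93 ± 0.16, SE; adjusted p = 0.00681, same test). Vps51 overlaps 532 bases of Tm7sf2 exons on the same strand, and it was itself at 32.6 CPM in KO and 38.7 CPM in WT libraries without a call (adjusted p = 0.147). Sqle, the squalene epoxidase that is a control point of the late pathway, had 13.4, 14.9 and 19.6 CPM in KO libraries, against 23.9, 26.6 and 26.2 CPM in WT libraries. KO_345 was the highest KO library and remained below all WT libraries (log2 change -0.68 ± 0.15, SE; adjusted p = 0.0143, edgeR's quasi-likelihood test). Its call was lost without KO_339 (adjusted p = 0.0590) or KO_340 (0.0562).

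The other 3 genes that fell did so by less. Msmo1, which oxidises sterol methyl groups, had 16.5, 17.3 and 13.9 CPM in KO libraries, against 20.5, 23.0 and 19.8 CPM in WT libraries (log2 change -0.41 ± 0.12, SE). Ebp, an X-linked sterol isomerase, had 34.4, 32.2 and 29.4 CPM in KO libraries, against 38.2, 45.2 and 40.7 CPM in WT libraries (log2 change -0.37 ± 0.10, SE). Dhcr7, which carries out the last reduction to cholesterol, had 12.7, 14.9 and 13.5 CPM in KO libraries, against 17.7, 17.5 and 18.8 CPM in WT libraries (log2 change -0.39 ± 0.10, SE). For none of these did the genotypes overlap, and their adjusted p-values were 0.0312, 0.0277 and 0.0220 in edgeR's quasi-likelihood test. These 3 calls were lost with upper-quartile scaling (log2 changes -0.27, -0.23 and -0.26) and with library totals (-0.31, -0.27 and -0.29). Without KO_339 (adjusted p = 0.0940, 0.0569 and 0.117), KO_345 (0.0970, 0.0868 and 0.0857) or WT_344 (0.0582, 0.0688 and 0.0719) they were lost too. Msmo1 and Ebp were also lost without KO_340 (0.0559 and 0.0756) or WT_343 (0.0727 and 0.0587). Both X-linked genes were called with sex, read from Xist and Y-linked counts, as a covariate, which differed between the groups (2 males and 1 female in KO, 1 male and 2 females in WT).

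The 5 uncalled steps lay among the called ones. Fdft1, the squalene synthase directly after Fdps, averaged 17.1 ± 0.732 CPM in KO and 16.7 ± 2.31 CPM in WT libraries (log2 change 0.03 ± 0.12, SE). It shares 774 bases of exon with Ctsb on the opposite strand, which stood at 381 CPM in KO and 415 CPM in WT libraries, and the labels do not state the strand setting of the counting. Cyp51, the lanosterol demethylase, averaged 28.5 ± 1.46 CPM in KO and 29.9 ± 3.19 CPM in WT libraries (log2 change -0.07 ± 0.10, SE). It shares 166 bases of exon with Akap9 on the opposite strand, which fell (166 CPM in KO and 219 CPM in WT libraries, adjusted p = 0.0107, edgeR's quasi-likelihood test). Hsd17b7, a keto-sterol reductase gene, had a log2 change of 0.05 ± 0.18 and Sc5d, which introduces a ring double bond, one of -0.12 ± 0.12 (SE each). Lss, the lanosterol synthase, averaged 10.4 ± 0.753 CPM in KO and 12.5 ± 1.68 CPM in WT libraries and was not called (log2 change -0.27 ± 0.13, SE; adjusted p = 0.146, edgeR's quasi-likelihood test). It passed without WT_341 (-0.38, adjusted p = 0.0288) and with sample quality weights in limma-voom (-0.32, 0.0266). SDs are over 3 libraries of each genotype, and a missing call does not show that a step was unchanged.

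Promoter sequences were examined because many of these genes share SREBP as a regulator, which acts together with the CCAAT-binding factor NF-Y and with Sp1 at GC boxes. RefSeq windows on GRCm38.p6, from 250 bases before to 50 after each start, were held for 25 of the 31 genes (not for Fdps, Fdft1, Sqle, Stard4, Scd1 and Scd2). Some genes had several windows, and a gene was counted when any of them held the motif on either strand. For 22 of the 25 genes, the end of a window matched the first part of an annotated transcript. The Acaca window (chr11:84195188-84195487) lay inside the gene, which is annotated from 84129672, so it does not cover that start. CCAAT was found in 20 of the 25 genes (80%), in 14 of the 15 sterol enzyme genes among them (93.3%) and in 41.1% of all 27031 genes. GGGCGG, the GC box, was found in 20 of 25 (80%), in 14 of 15 (93.3%) and in 38.2%. The 27031 are all genes with a window and were not limited to the genes tested here. TCACNCCAC, a sterol regulatory element form in which N is any base, was found in Hmgcs1 alone of the 25, and in 1.44% of all genes. Its shorter form CACNCCAC, which lies within every match of the longer form, was also found in Acat2 and Insig1, and in 7.12% of all genes. Other forms of the element were not searched for, so a gene without a match may still hold one. TCACGTGA, an E-box that SREBP can bind, was found in 0 of 25 and in 1.12% of all genes.

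The presence of CCAAT did not separate sterol enzyme genes that fell from those that were not called, being found in 8 of 9 and in 6 of 6. GC boxes gave the same counts. The 150 bases before the start are shown 5′ to 3′ on the gene's strand for 4 genes that fell and for Mvd and Cyp51, which did not, so that the arrangement of the motifs can be compared. Capitals mark CCAAT on either strand (ATTGG on the reverse) and, in Hmgcs1, TCACNCCAC. Any other form of the sterol regulatory element is left unmarked. Their positions are chr13:119690201-119690350 (forward) for Hmgcs1, chr5:114444119-114444268 (forward) for Mvk, chrX:72918371-72918520 (forward) for Nsdhl, chr19:6067851-6068000 (reverse) for Tm7sf2, chr8:122443423-122443572 (reverse) for Mvd and chr5:4104698-4104847 (reverse) for Cyp51.
Hmgcs1: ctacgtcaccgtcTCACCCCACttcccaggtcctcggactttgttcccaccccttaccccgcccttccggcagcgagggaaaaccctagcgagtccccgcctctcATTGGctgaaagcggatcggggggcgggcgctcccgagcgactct
Mvk: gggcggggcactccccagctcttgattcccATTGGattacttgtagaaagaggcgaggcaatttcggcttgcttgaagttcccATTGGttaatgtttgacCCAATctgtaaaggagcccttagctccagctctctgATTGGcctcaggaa
Nsdhl: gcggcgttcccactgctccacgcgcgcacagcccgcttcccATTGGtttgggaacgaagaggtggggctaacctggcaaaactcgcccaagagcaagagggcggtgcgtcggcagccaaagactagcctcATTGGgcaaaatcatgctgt
Tm7sf2: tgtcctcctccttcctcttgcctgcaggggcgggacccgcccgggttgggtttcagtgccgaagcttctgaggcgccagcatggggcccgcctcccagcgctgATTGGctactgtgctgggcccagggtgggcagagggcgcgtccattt
Mvd: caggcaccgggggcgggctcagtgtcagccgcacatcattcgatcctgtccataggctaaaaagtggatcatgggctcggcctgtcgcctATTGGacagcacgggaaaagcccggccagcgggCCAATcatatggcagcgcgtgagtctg
Cyp51: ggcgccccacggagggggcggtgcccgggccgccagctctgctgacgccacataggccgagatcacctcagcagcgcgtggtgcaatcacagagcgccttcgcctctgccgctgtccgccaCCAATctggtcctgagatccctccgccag
Within these stretches Mvk held 4 CCAAT matches, Nsdhl and Mvd 2 each, and Hmgcs1, Tm7sf2 and Cyp51 1 each. A match is a run of letters and not a measured binding site.

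**Figure D4:**
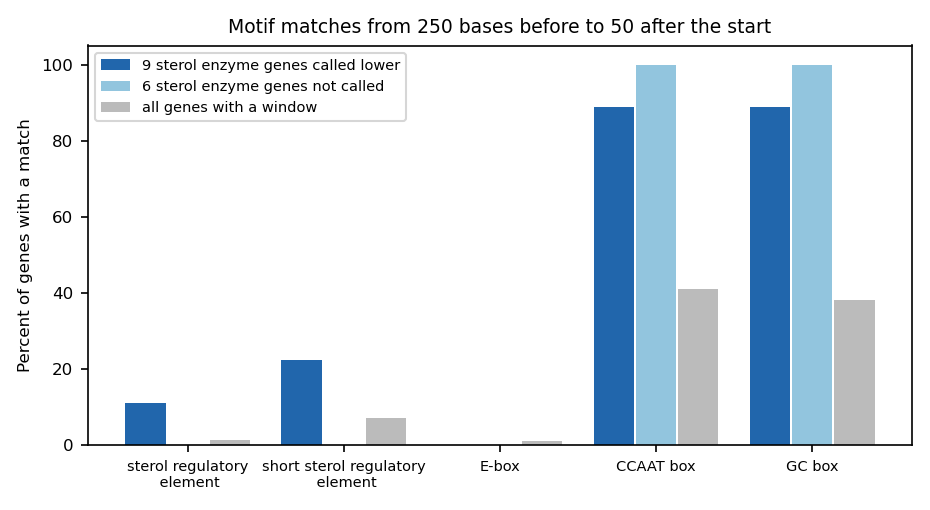
Bars give the percent of genes with a match to each motif on either strand, from 250 bases before to 50 after the start, for 9 sterol enzyme genes called lower in KO cells, 6 not called, and all 27031 genes with a window. CCAAT and GC boxes were each found in 88.9% of the sterol enzyme genes called lower and in 100% of those not called. Of all genes, 41.1% held CCAAT and 38.2% a GC box.

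Among the 6 regulators and transport genes, Insig1 and Stard4 fell, 0 rose and 4 were not called. Insig1, itself an SREBP target whose product retains SCAP, had 24.3, 27.3 and 22.1 CPM in KO libraries, against 38.3, 33.7 and 34.7 CPM in WT libraries. Every KO library was below every WT library (log2 change -0.53 ± 0.11, SE; adjusted p = 0.0111, edgeR's quasi-likelihood test), and the call held with the neutrophil but not the progenitor covariate (-0.52, adjusted p = 0.726). It was lost without KO_339 (adjusted p = 0.0633) or KO_345 (0.0534). Insig2, whose product has the same task but whose gene is not known as a main SREBP target, had 12.1, 13.2 and 13.0 CPM in KO libraries, against 13.6, 10.4 and 10.6 CPM in WT libraries. WT_341 stood above all KO libraries and the other WT libraries below them, so the groups overlapped (log2 change 0.15 ± 0.13, SE; adjusted p = 0.410, same test). Whether the 2 Insig genes differ in their change was not tested.

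Stard4, a carrier of cholesterol between membranes, had 29.9, 32.1 and 32.9 CPM in KO libraries, against 41.4, 48.4 and 39.0 CPM in WT libraries. The groups were clear of each other (log2 change -0.44 ± 0.10, SE; adjusted p = 0.0180, edgeR's quasi-likelihood test), and this was lost without KO_339 (0.0758) or KO_340 (0.0535). Srebf1, which encodes the SREBP of fatty acid genes, had 71.2, 77.4 and 75.4 CPM in KO libraries, against 79.1, 89.1 and 109 CPM in WT libraries. The groups did not overlap, and the gene was not called (log2 change -0.31 ± 0.12, SE; adjusted p = 0.0790, same test). Srebf2, the SREBP of sterol genes, had 61.7, 74.1 and 81.1 CPM in KO libraries, against 82.95, 74.2 and 106 CPM in WT libraries. KO_345 lay above WT_343, and the gene was not called (log2 change -0.28 ± 0.15, SE; adjusted p = 0.184, same test). Scap, the escort of both factors, had 109, 119 and 114 CPM in KO libraries, against 110.4, 143 and 155 CPM in WT libraries, so that WT_341 alone stood within the KO range. It was not called (log2 change -0.26 ± 0.13, SE; adjusted p = 0.140, edgeR's quasi-likelihood test). Without WT_341, Srebf1 (log2 change -0.42, adjusted p = 0.00925) and Scap (-0.40, 0.00375) passed. With sample quality weights in limma-voom, Srebf1 (-0.47, 0.00377), Srebf2 (-0.51, 0.0146) and Scap (-0.40, 0.00601) passed. Activity of SREBP depends on cleavage of the protein, which messenger RNA levels do not measure.

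Of the 7 fatty acid genes, 4 fell, 1 rose and 2 were not called. Scd2, a stearoyl-CoA desaturase and among the most counted of the 31, had 221, 207 and 197 CPM in KO libraries, against 324, 444 and 438 CPM in WT libraries. WT_341 was the lowest WT library and still far above the KO libraries (log2 change -0.95 ± 0.13, SE; adjusted p = 0.00402, edgeR's quasi-likelihood test). Scd2 lies on chromosome 19 (44293674 to 44306864, forward strand), as does its paralogue Scd1 (44394455 to 44407879, reverse strand). Scd1 was far lower and erratic, with 3.48, 1.65 and 7.02 CPM in KO libraries, against 3.23, 2.27 and 2.39 CPM in WT libraries. KO libraries lay on both sides of the WT libraries, and no call was made (log2 change 0.62 ± 0.47, SE; adjusted p = 0.322, same test). Elovl6, which lengthens palmitate, had 22.5, 20.03 and 21.9 CPM in KO libraries, against 34.2, 37.4 and 34.5 CPM in WT libraries. Both groups were tight and apart (log2 change -0.72 ± 0.09, SE; adjusted p = 0.00334, same test).

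Acaca, the acetyl-CoA carboxylase of the committed step, had 86.9, 95.2 and 93.01 CPM in KO libraries, against 130.1, 167 and 153 CPM in WT libraries. No library overlapped with the other genotype (log2 change -0.71 ± 0.10, SE; adjusted p = 0.00454, edgeR's quasi-likelihood test). A processed pseudogene, Gm5182, is 99.2% identical over 6118 bases and is not listed in the table. Fasn, the fatty acid synthase, had 191, 208 and 225 CPM in KO libraries, against 242, 431 and 401 CPM in WT libraries. WT_341 lay close to the KO libraries and apart from WT_343 and WT_344 (log2 change -0.78 ± 0.20, SE; adjusted p = 0.0233, same test). The Fasn call was lost without KO_339 (adjusted p = 0.0857), KO_340 (0.0638), KO_345 (0.0574), WT_343 (0.0686) or WT_344 (0.0751). With the neutrophil covariate its log2 change was -0.20 (adjusted p = 0.444), and with the progenitor covariate 0.63 (0.775). Acly, which supplies cytosolic acetyl-CoA from citrate to both routes, had 297, 304 and 291 CPM in KO libraries, against 314, 397 and 367 CPM in WT libraries. All KO libraries were below all WT libraries by a small margin, and the gene was not called (log2 change -0.27 ± 0.10, SE; adjusted p = 0.0627, same test). It passed with DESeq2 (adjusted p = 0.0370), with no low-count filter (0.0434), with sample quality weights in limma-voom (0.00497) and without WT_341 (0.00511).

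Lpin1, a phosphatidate phosphatase that makes diacylglycerol and also acts as a transcriptional co-regulator, was the 1 gene that rose. It had 21.6, 19.9 and 29.4 CPM in KO libraries, against 16.6, 9.86 and 10.3 CPM in WT libraries. KO libraries stood above all WT libraries, of which WT_341 was the highest (1.93-fold, log2 change 0.95 ± 0.24, SE; adjusted p = 0.0211, edgeR's quasi-likelihood test). The call was lost without KO_339 (adjusted p = 0.0614), KO_345 (0.0781), WT_343 (0.0635) or WT_344 (0.0721), and with the neutrophil (log2 change 0.54, adjusted p = 0.268) or progenitor covariate (-0.84, 0.559), the sign turning in the second. Lpin2, a relative outside the list, was at 112 ± 6.18 CPM in KO and 111 ± 15.3 CPM in WT libraries and was not called (log2 change 0.02 ± 0.11, SE).

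**Figure D5:**
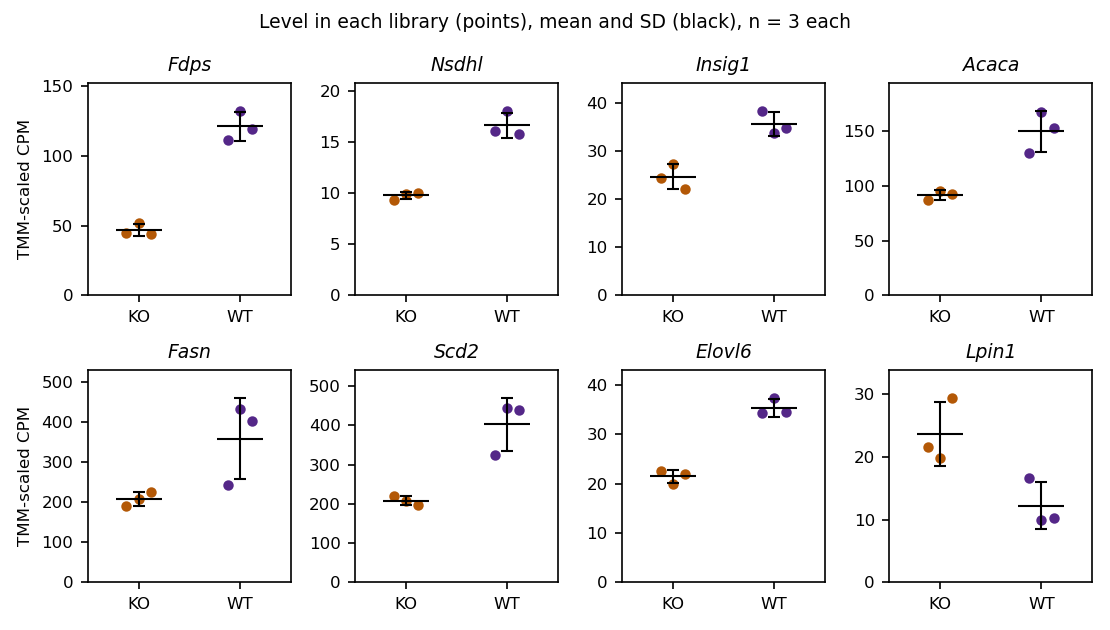
Points give TMM-scaled CPM of 8 genes in each of 3 KO libraries (left) and 3 WT libraries (right), with the mean and SD in black and axes from 0. For Fdps, Nsdhl, Insig1, Acaca, Scd2 and Elovl6 the KO points lie well below the WT points, for Fasn 1 WT point lies near the KO points, and for Lpin1 the KO points lie above.

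Levels per kilobase of annotated exon allow genes to be compared with each other. The highest WT levels were those of Scd2 (73.6 CPM per kb), Acly (68.0), Fasn (32.7) and Fdps (28.8), and the lowest those of Lpin1 (1.27), Lss (1.16) and Scd1 (0.537). In KO libraries Acly (56.3 CPM per kb) stood above Scd2 (38.1), and Fdps was at 11.2 CPM per kb. With the longest transcript as the length, Acly (81.2 CPM per kb) came before Scd2 (73.7) in WT libraries and Fdps (41.1) before Fasn (35.6), so those orders depend on the length used.

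Other genes of the same metabolism were counted from a separate list of 44, of which 43 were tested. Of these, 15 fell (34.9%) and 2 rose (4.65%), set against the 19.9% and 16.0% of all tested genes given above. Their median log2 change was -0.17. The share of all genes called lower was 36.4% in the group of highest level and 29.7% in the next. Neither this list nor its parts were split by level, so how far level accounts for the falls was not tested. Named by the smallest adjusted p-values, the 6 were Erg28, Mbtps2, Acsl1, Npc2, Mbtps1 and Soat1. Erg28, which encodes a scaffold for sterol demethylation enzymes such as NSDHL, had 18.4, 17.1 and 18.3 CPM in KO libraries, against 27.1, 31.4 and 27.6 CPM in WT libraries (log2 change -0.68 ± 0.10, SE; adjusted p = 0.00440, edgeR's quasi-likelihood test). The genes of both proteases that cleave SREBP fell, neither with overlap between genotypes. Mbtps1, the site-1 protease, had 87.3, 91.2 and 93.97 CPM in KO libraries, against 117, 139 and 127 CPM in WT libraries (log2 change -0.49 ± 0.08, SE; adjusted p = 0.00664, same test). Mbtps2, the site-2 protease, had 19.98, 19.98 and 22.1 CPM in KO libraries, against 29.2, 33.6 and 32.1 CPM in WT libraries (log2 change -0.61 ± 0.10, SE; adjusted p = 0.00532, same test). These 3 genes were called under 16 of the 17 alternatives, and not with the progenitor covariate.

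Sterol handling genes moved the same way in part. Of 8 genes for sterol uptake, esterification and transport, 4 fell (50%) and 0 rose. Over all tested genes 19.9% were called lower and 16.0% higher, and in the group of highest level 36.4% were called lower. Npc2, which carries cholesterol out of lysosomes, had 177, 172 and 188 CPM in KO libraries, against 241, 260.3 and 236 CPM in WT libraries (log2 change -0.46 ± 0.07, SE; adjusted p = 0.00585, edgeR's quasi-likelihood test). Soat1, which stores cholesterol as ester, had 113, 113 and 101 CPM in KO libraries, against 153, 209.9 and 173 CPM in WT libraries (log2 change -0.71 ± 0.12, SE; adjusted p = 0.00693, same test). Neither gene showed overlap, and Soat1 was lost with the neutrophil (adjusted p = 0.0573) and the progenitor covariate (0.983), where its log2 change was 0.031. Of the 6 liver X receptor genes and targets, which respond to oxidised sterols, 0 fell and 1 rose (16.7%, close to the 16.0% of all tested genes). That gene was Mylip, the ligase that degrades the LDL receptor, with a log2 change of 0.71 ± 0.14 (SE; adjusted p = 0.0113, same test), named here after its value was seen. Of the 19 other fatty acid and phosphatidate genes tested, 7 fell and 1 rose. The 1 was Acsl1, an acyl-CoA synthetase, with 282, 285 and 253 CPM in KO libraries, against 189.8, 141 and 151 CPM in WT libraries (log2 change 0.77 ± 0.12, SE; adjusted p = 0.00556, same test). Acsl1 and Lpin1 were both highest among WT libraries in WT_341.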

How the data were processed

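The authors deposited raw, unnormalized counts, with genes in rows and the 6 libraries in columns; per the labels' protocols, RNA of single mice was made into strand-specific TruSeq messenger RNA libraries read as paired ends. Per the submitters' processing notes, FastQC, Trimmomatic, STAR, HTSeq and the build mm10 were used, without versions; how strand and multiply mapped reads were handled is not stated there. The table has 0 columns of other samples.

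All genes were fitted together in edgeR 4.0.16 (R 4.3.3): filterByExpr (minimum count 10, minimum total 15), TMM factors, glmQLFit with robust estimation, glmQLFTest for genotype and Benjamini-Hochberg adjustment, with a threshold of 0.05. CPM use the TMM factors and are given as mean ± SD (n = 3). Totals of the genotypes were not distinguishable (p = 0.40 in an exact permutation test, two-sided, which cannot go below 0.10). Alternatives were DESeq2 1.42.0, limma-voom (limma 3.58.1), other scalings and filters, sex and marker-level covariates (the progenitor level added after seeing the data), and each library left out.

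The members and lists were chosen with earlier results of these data known. Values per library are given for members that were called and average 1 CPM or more, for 5 regulators, and for 6 of the other genes; Mvd, Acly, Scd1, Mylip and Lpin2 were named after their values were seen. The marker list for neutrophils had 12 genes, of which Ly6g was not listed. Positions and lengths are from GENCODE M21, promoters from RefSeq. Erythroid (0 higher, 1 lower of 9), lymphoid (0 and 0 of 8), macrophage (1 and 0 of 7), stromal (2 and 0 of 7) and proliferation genes (0 and 3 of 8) were the other marker lists. Over all tested genes 16.0% were called higher and 19.9% lower.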

Additional observations from a re-analysis of the deposited data

How the results depend on the processing

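Over 17 alternatives the 18 called members gave 306 comparisons: 232 kept the call, 69 lost it with the same direction, and 5 turned, all with the progenitor covariate. With the neutrophil level as a covariate, 7 members were called lower and 0 higher, among 1521 genes called in all, and 7 of the other pathway genes. Leaving out single libraries gave 6 to 21 members called lower, 0 to 1 called higher, 2302 to 7879 genes called in all and 10 to 20 other pathway genes. With the level of the granulocyte-monocyte progenitor list as a covariate, chosen after seeing the data, 0 genes of the whole table passed, hence 0 members lower, 0 higher and 0 other pathway genes. In that fit the called genes Hmgcs1 (0.024), Mvk (0.51), Ebp (0.012), Fasn (0.63), Lpin1 (-0.84) and Soat1 (0.031) turned, as did the uncalled Mvd (-0.36), Fdft1 (-0.43), Lss (0.48), Cyp51 (0.27), Insig2 (-0.45), Srebf1 (0.34), Scap (0.63), Acly (0.31) and Scd1 (-2.57), none with an adjusted p under 0.05. Under the other alternatives, the sign changed for some genes that were not called, among them Lss (-0.27 as reported) and Scd1 (0.62). Cyp51 had log2 changes of 0.066 with upper-quartile factors, 0.031 with library totals, 0.0026 with at least 1 CPM in 3 libraries and 0.13 with the neutrophil covariate. That covariate also gave Mvd -0.093, Fdft1 -0.15, Lss 0.016 and Insig2 -0.078. Sc5d was 0.0092 with upper-quartile factors, Fdft1 -0.025 with sex, and Hsd17b7 -0.019 with sample quality weights. Leaving out single libraries gave -0.20 to 0.0088 for Sc5d, -0.011 to 1.02 for Scd1, -0.13 to 0.17 for Hsd17b7, -0.031 to 0.093 for Mvd and -0.039 to 0.14 for Fdft1; the cause was not tested. Higher calls made up 44.5% of all calls with TMM, 64.2% after upper-quartile scaling and 58.8% when scaled by totals. No paired analysis was possible because the labels share no replicate numbers between the genotypes. The lowest count of any member in any library was 217 (Scd1).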
